A study of Mus musculus with 8 samples.

Results

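The comparison described here set Th0 cells against naive CD4 T cells, and its members are 4 of the 8 RNA sequencing libraries of the series, naive replicates 1 and 2 and Th0 replicates 1 and 3. Members were taken by their library names, and each comparison ran over all genes that could be tested, 14690 of 34745. All libraries came from spleen CD4+ T cells of wild type C57BL/6 mice. The naive libraries held cells taken straight from the spleen with no culture, and the labels give no gate or sort that would separate naive from memory or regulatory CD4 T cells. Th0 cells were kept for 3 days with antibodies to the T cell receptor component CD3 and to the co-stimulatory receptor CD28, and the labels name no other agent. The Th17 and Treg libraries, 2 of each, were made after 3 days under conditions named for those helper and regulatory fates, with no agent named, and serve below only to place the Th0 level of a gene. Whether replicates are separate mice or cultures is not stated in the labels, so a p-value here measures library-to-library spread that may be technical. The cells' age, sex and culture medium are not given in the sources used here, and culture itself cannot be told apart from stimulation in this comparison.

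A resting T cell is small, makes little protein and circulates between blood and lymphoid organs. Signals through the antigen receptor and CD28 start a burst of immediate early transcription, and within hours the cell enlarges its protein synthesis machinery, takes up amino acids and prepares to divide. Feedback inhibitors of receptor signalling, receptors for growth-promoting cytokines and new homing receptors follow over days. After 3 days such a culture usually holds dividing blasts. The only culture time here, 3 days, lies past the first hours of activation, and neither division nor the course over time was measured.

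Sequencing depth was 20225716 and 22443368 counts for naive and 16332971 and 13976564 counts for Th0. Levels are TMM-scaled CPM, counts relative to library size, unless another scale is named. CD4 T cell markers were present in every library, with 7 of 12 higher and none lower in Th0, where 31.3% of all tested genes were higher and 36.4% lower (summed 3626 and 3926 CPM in naive, 5597 and 5324 in Th0). Markers of other spleen cells were lower in Th0, apart from those of CD8 T cells. All 24 myeloid markers were lower in Th0, at a summed 5205 and 4964 CPM in naive against 70.4 and 65.7, and C1qb, S100a8, S100a9, Csf3r, Fcgr1 and Xcr1 had no count in either Th0 library. All 14 B cell markers were lower (1938 and 1570 against 253 and 266 CPM), as were all 9 NK cell markers (267 and 250 against 23.1 and 22.2 CPM) and 10 of 11 red blood cell and platelet markers (399 and 328 against 9.05 and 9.16 CPM). Both CD8 T cell markers, Cd8a and Cd8b1, were higher in Th0, at a summed 91.6 and 82.0 CPM in naive against 176 and 176 CPM. In bulk RNA, fewer cells of a type and less RNA per cell cannot be told apart. The libraries labelled naive CD4 T cells thus held CD4 T cell transcripts with RNA of other spleen cells beside them. Foxp3, the factor that defines regulatory T cells, lay at 95 and 101 CPM in naive and 5.94 and 4.7 CPM in Th0, so transcripts of that CD4 subset were also in the naive libraries.

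In all, 4600 genes (31.3%) were higher and 5342 (36.4%) were lower in Th0, 67.7% together, than in naive cells at an adjusted p under 0.05, with edgeR's quasi-likelihood test and Benjamini-Hochberg adjustment. A change of at least 2-fold was found in 2368 of the higher and 3511 of the lower genes, and a change of at least 16-fold in 165 and 1189. The median log2 fold change over all genes was -0.08. These shares and this median are the background for every gene list below. Counts of a list that lie near these shares describe its members and are not a result about the list. Both Th0 libraries lay above both naive libraries in 5850 genes (39.8%) and below both in 6739 (45.9%). Groups without overlap were therefore common, and the mention of it for a gene below is a description only. Outside the marker lists, those that held the greatest share of higher genes covered amino acid synthesis with ATF4 targets, ribosomal proteins, aminoacyl-tRNA synthetases, chaperones, nuclear transport, CDK inhibitors and E2F factors, and p53 targets. Those with the greatest share of lower genes covered chemokines, the interferon response, immediate early genes, adhesion, trafficking, mitochondrially encoded genes, ribosome biogenesis, lysosome and glycan synthesis.

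**Figure D1:**
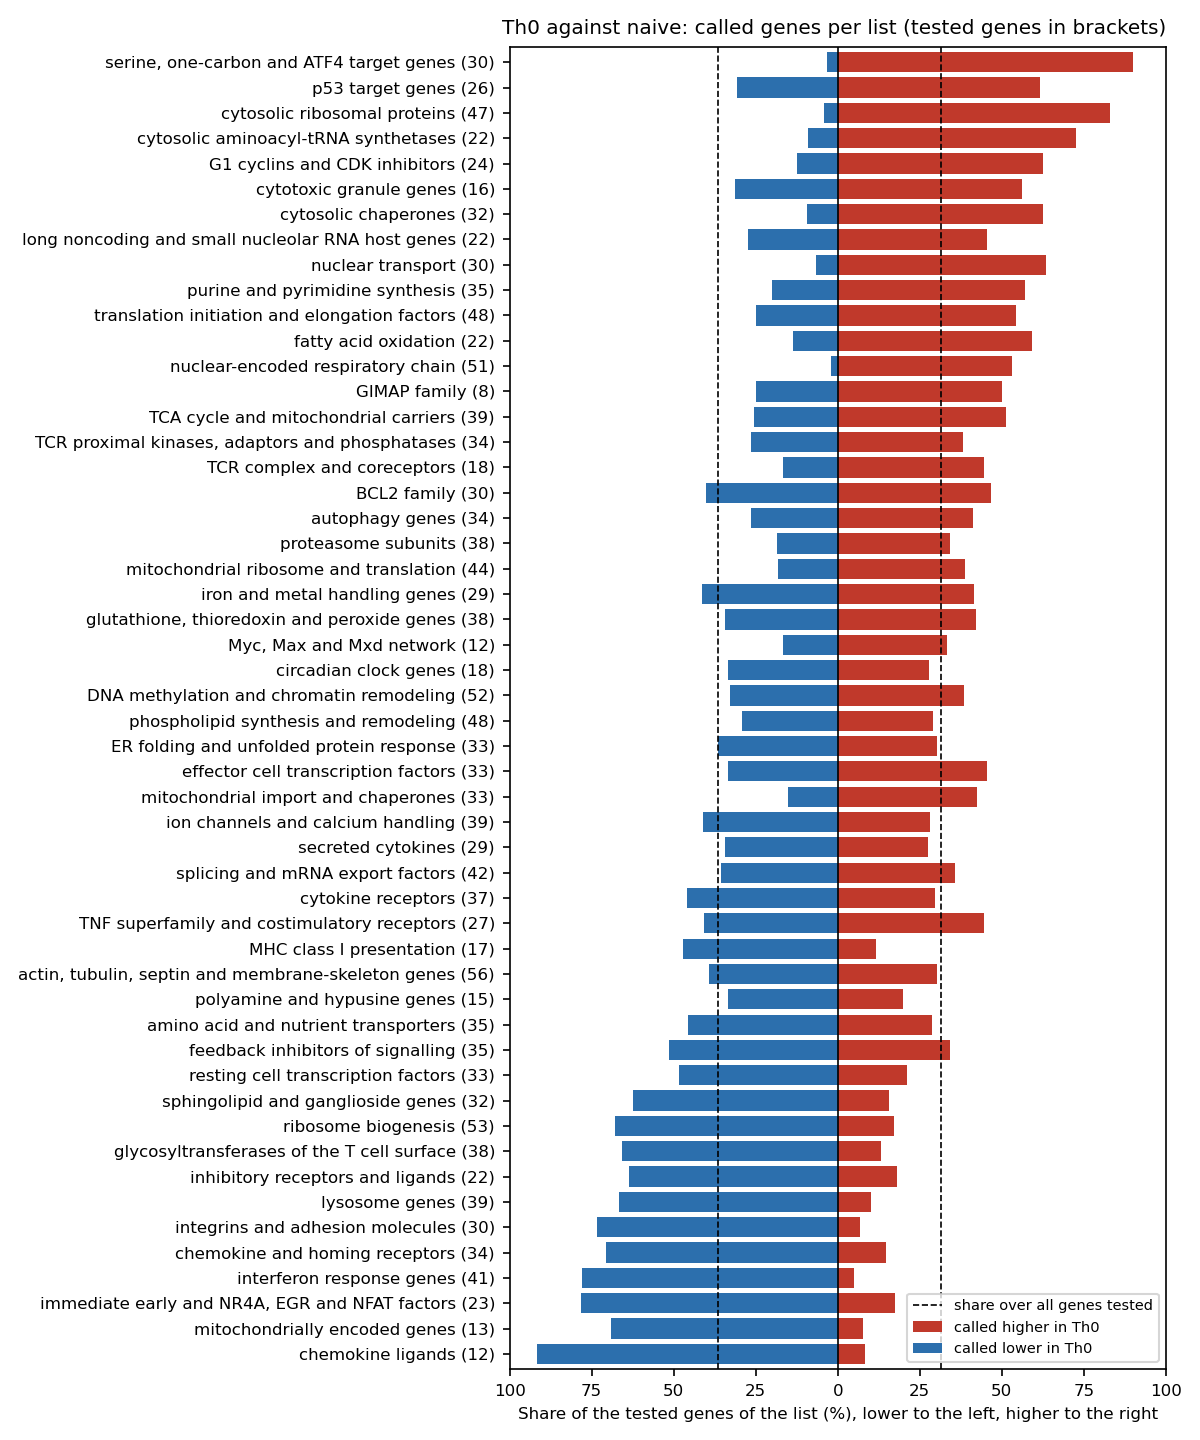
Share of the tested members of the gene lists called higher (right) or lower (left) in Th0 than in naive cells, in percent, with dashed lines at the shares over all genes tested (31.3% higher, 36.4% lower). Ribosomal proteins (39 of 47 higher) and serine and ATF4 genes (27 of 30 higher) stand at one end, and chemokines (11 of 12 lower) and immediate early genes (18 of 23 lower) at the other.

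The protein synthesis machinery was higher in Th0. Of 47 tested cytosolic ribosomal protein genes, 39 were higher and 2 lower, with a median log2 fold change of 0.96, and their summed level went from 21061 and 22309 CPM in the naive libraries to 48920 and 43951 CPM in Th0. Rpl4, a protein of the large ribosomal subunit (chr9:64173387-64178562, GRCm38), lay at 1890.4 and 1843 CPM in naive and 5179 and 5101 CPM in Th0. Both Th0 libraries were far above both naive libraries, with a log2 fold change of 1.46 ± 0.08 SE, adjusted p = 4.96e-07. Rpsa, a protein of the small subunit, rose from 1714 ± 36.5 to 4698 ± 173 CPM (SD, n = 2). Per length, Rpl4 went from a mean of 4689 to 12049 TPM, which accounts for gene length, and Rplp1, a protein of the ribosomal stalk, from 6816 to 10602 TPM. The members called lower were among the least abundant, Rpl28 at 10.2 and 13.7 against 6.87 and 4.31 CPM and Rps29 at 3.18 and 2.69 against 1.19 and 0.77 CPM, and Rps29 no longer passed when naive replicate 1, naive replicate 2 or Th0 replicate 3 was left out (adjusted p = 0.0985, 0.0555 and 0.124), which left 1 member called lower. Ribosomal protein genes have many near-identical pseudogene copies that can take or lend reads, so single members of the list are uncertain.

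Elongation factors stood among the most abundant transcripts of Th0 cells. Eef2, which moves the ribosome along the mRNA, lay at 3433 and 3562 CPM in naive and 9770.0 and 9995 CPM in Th0 (chr10:81176631-81182507). Both Th0 libraries were far above both naive libraries (adjusted p = 4.47e-07). Eef1a1, which brings aminoacyl-tRNA to the ribosome, went from 4992 to 10322 TPM, and Eef1g, of the complex that recharges it, rose from 302 ± 2.32 to 974 ± 151 CPM. Over 48 initiation, elongation and release factors, 26 were higher and 12 lower (median 0.51). Eif2s2, a subunit of the factor that carries the initiator tRNA, rose from 70.7 ± 2.86 to 288 ± 55.6 CPM, and Eif4ebp1, the mTOR-regulated inhibitor of cap binding, rose from 12.9 ± 0.639 to 53.3 ± 8.39 CPM. The cap-binding protein gene Eif4e had naive libraries far apart, at 71.6 and 27.1 CPM, against 127 and 149 CPM in Th0, and its log2 fold change of 1.48 became 2.35 without naive replicate 1. Members of the cap and scanning complexes were lower, including the helicase Eif4a1 (233 ± 1.95 against 129 ± 1.64 CPM), the subunit Eif3b and the scaffold Eif4g1 (438 ± 36 against 283 ± 22.6 CPM).

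Most factors that build ribosomes went the other way. Of 53 tested ribosome biogenesis genes, 36 were lower and 9 higher in Th0 (median -0.75). Polr1b, the second largest subunit of RNA polymerase I, which transcribes ribosomal RNA (chr2:129100995-129126594), lay at 47.7 and 47.3 CPM in naive and 9.71 and 6.47 CPM in Th0. Both Th0 libraries were far below both naive libraries, with a log2 fold change of -2.54 ± 0.34 SE, adjusted p = 1.25e-04. Bop1, needed to mature the large subunit, fell from 73.7 ± 1.76 to 16.8 ± 3.25 CPM, Rrs1 from 39.7 ± 1.2 to 9.35 ± 1.25 CPM, and Ppan from 54.4 ± 0.171 to 16.2 ± 0.501 CPM. Nolc1, a nucleolar phosphoprotein, and the pseudouridine synthase Dkc1 were lower too (log2 fold changes -1.67 and -1.33).

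The 9 higher members of this list included nucleolar proteins known for their abundance. Npm1, nucleophosmin (chr11:33152287-33163206), lay at 399 and 428 CPM in naive and 1497 and 1463 CPM in Th0, and the groups did not overlap (log2 fold change 1.84 ± 0.12 SE, adjusted p = 1.33e-06). Ncl, nucleolin, rose from 719 ± 2.29 to 1328 ± 58.9 CPM. Taf1d, of the promoter selectivity complex of RNA polymerase I, and the polymerase subunits Polr1c and Polr1d, which are shared with RNA polymerase III, were also higher (log2 fold changes 1.45, 1.28 and 1.08). Of 22 long noncoding RNAs, some of them hosts of the small nucleolar RNAs that guide the modification of ribosomal RNA, 10 were higher and 6 lower. The host gene Gas5 lay at 127 and 141 CPM in naive and 602 and 389 CPM in Th0. It was about as different between states as Npm1, with a log2 fold change of 1.89 ± 0.18 SE, adjusted p = 1.25e-05. The host gene Snhg5 rose from 23.9 ± 1.2 to 51.4 ± 0.755 CPM, while Snhg8 (28.1 ± 3.59 against 20.9 ± 16.7 CPM) and Snhg20 (11.5 ± 0.141 against 15.5 ± 5.26 CPM) did not pass the test, though Snhg8 was called lower without Th0 replicate 1 (log2 fold change -1.61, adjusted p = 0.00166). Pvt1, a long noncoding RNA, rose from 5.45 ± 0.755 to 51.1 ± 3.45 CPM.

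Ribosomal protein genes were also higher in Th0 than in the other cultured states, and many biogenesis genes lower. These contrasts use the same Th0 libraries as the contrast with naive cells and are therefore not independent of it. Of the 47 ribosomal proteins, none was higher and 30 were lower in Th17 than in Th0, where 16.1% of all genes were higher and 12.6% lower. In Treg conditions none was higher and 41 were lower (25.7% and 20.6% of all genes). These shares over all genes are the background for every count against Th17 or Treg below. Of the 53 biogenesis genes, 18 were higher and 5 lower in Th17, and 29 higher and 7 lower in Treg. Polr1b measured 19.2 ± 9.76 CPM in Th17 and 26.8 ± 6.37 CPM in Treg (SD, n = 2).

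**Figure D2:**
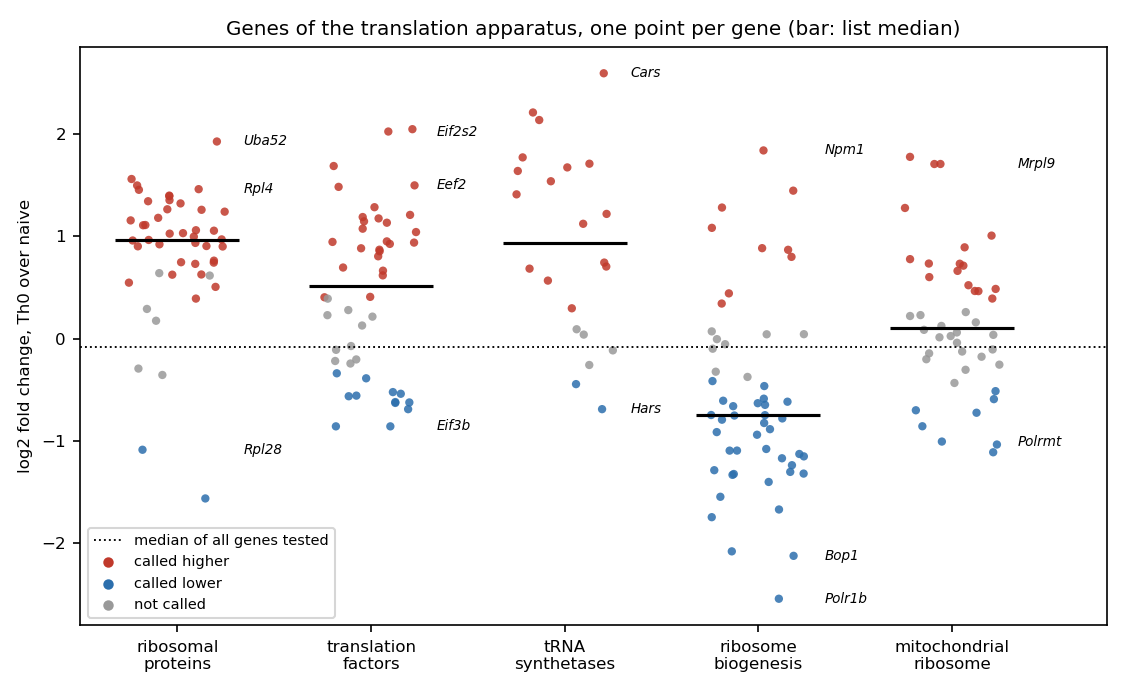
Log2 fold change of Th0 over naive for every tested member (1 point per gene) of 5 lists: ribosomal proteins, translation factors, aminoacyl-tRNA synthetases, ribosome biogenesis and mitochondrial ribosome. The medians are 0.96 for ribosomal proteins and -0.75 for biogenesis factors.

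Genes of amino acid synthesis and of the transcription factor ATF4 gave the highest share of higher genes of any list outside the cell type markers. ATF4 is translated when the kinases of the integrated stress response or mTOR are active, and with partners such as CHOP it raises genes for making, importing and charging amino acids. Of 30 tested members, 27 were higher in Th0 and 1 was lower (median 1.75). Earlier results of these data had already shown this direction with a shorter list. The promoters that hold the motif by which ATF4 and its partners are known to bind are shown because they join this list to the aminoacyl-tRNA synthetases. The motif shown here was TGATGNAA, searched on both strands from 250 bases before the transcription start to 50 bases after it, and the capitals mark the match. Sequences are from RefSeq (GRCm38.p6), 5′ to 3′ on the strand of the gene, and show the match with up to 26 bases on each side.
Asns: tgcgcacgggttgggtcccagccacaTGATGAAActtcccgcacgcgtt
Pycr1: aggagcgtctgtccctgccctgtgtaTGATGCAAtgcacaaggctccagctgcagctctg
Nupr1: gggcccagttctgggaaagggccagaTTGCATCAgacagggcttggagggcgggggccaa
Chac1: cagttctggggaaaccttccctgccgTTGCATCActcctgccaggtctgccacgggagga
Aars: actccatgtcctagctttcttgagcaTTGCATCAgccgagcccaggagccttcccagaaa
Gars: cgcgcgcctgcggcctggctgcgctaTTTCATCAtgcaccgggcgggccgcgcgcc
Tars: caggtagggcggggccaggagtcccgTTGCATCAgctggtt

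The Asns sequence lies at chr6:7693210-7693258 on the minus strand, and its motif begins 23 bases before the start. The Pycr1 sequence lies at chr11:120643818-120643877 (minus) with the motif 103 bases before the start, and that of Nupr1 at chr7:126625547-126625606 (minus) with the motif 110 bases before the start. The Chac1 sequence lies at chr2:119351023-119351082 (plus), 193 bases before, and that of Aars at chr8:111033704-111033763 (plus), 112 bases before. The Gars sequence lies at chr6:55037945-55038000 (plus), 30 bases before, and that of Tars at chr15:11399659-11399699 (minus), 15 bases before. In Asns and Pycr1 the motif reads forward, and in the others it stands in the reverse orientation. The motif was found in 6 of the 24 members of the amino acid list with a promoter in the table (25%), the other members being Trib3 and Vldlr, and in 5 of 14 aminoacyl-tRNA synthetases (35.7%), the other members being Iars and Yars. The matches of Trib3, Iars and Yars lie within the 50 bases after the start, and Aars has another match there. All 11 were higher in Th0, as were 27 of 30 tested members of the amino acid list and 16 of 22 synthetases. The amino acid list is in part a list of known ATF4 targets, so its share with this motif is not an independent result. Over the 10286 tested genes with a promoter it was found in 2.77%, over all 27025 promoters of the table in 4.51%, over genes higher by at least 2-fold in 3.53% and over genes lower by at least 2-fold in 3.66%. A match is a description, not a site or a cause.

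Asns lay at 4.24 and 3.47 CPM in naive and 146 and 114 CPM in Th0, and it measured 109.7 ± 5.34 CPM in Th17 and 104 ± 7.86 CPM in Treg (SD, n = 2). Pycr1, of proline synthesis (chr11:120635712-120643769), lay at 1.25 and 0.737 CPM in naive and 24.4 and 21.7 CPM in Th0. No naive library came near a Th0 library, and the log2 fold change was 4.54 ± 0.27 SE, adjusted p = 6.37e-07. Mthfd2, of mitochondrial one-carbon metabolism, lay at 49.8 and 53.6 CPM in naive and 366 and 263 CPM in Th0, again without overlap (log2 fold change 2.60 ± 0.15 SE, adjusted p = 4.89e-07). The serine synthesis genes Phgdh (log2 fold change 1.83) and Psat1 (2.22) rose, and Aldh1l2, the mitochondrial enzyme that oxidises formyl-tetrahydrofolate, rose from 0.0241 ± 0.0341 to 7.17 ± 1.43 CPM. Cth, which makes cysteine from cystathionine, rose from 0.116 ± 0.0409 to 14.3 ± 0.565 CPM. Shmt1 (11.6 ± 1.01 against 8.36 ± 1.81 CPM) and Mthfd1, the cytosolic counterparts in one-carbon metabolism, did not pass the test. Mthfd1 was called lower with library totals, with no filter on low counts or in the 4 libraries alone (adjusted p = 0.0478, 0.036 and 0.02). Cebpb was the member called lower in the main fit, from 59.6 ± 2.53 to 36.6 ± 0.455 CPM.

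Stress regulators of the same list were higher as well, while Atf3, counted below with the immediate early genes, was lower. Atf4 itself lay at 215 and 219 CPM in naive and 564 and 492 CPM in Th0 (chr15:80255184-80257540). The groups did not overlap, and the log2 fold change was 1.28 ± 0.12 SE, adjusted p = 1.43e-05. Ddit3, which encodes CHOP, rose from 22.3 ± 2.6 to 165 ± 2.2 CPM. Its level was lower in the other cultured states, at 74.7 ± 27.5 CPM in Th17 (log2 fold change against Th0 -1.15, adjusted p = 0.0065) and 34.4 ± 8.31 CPM in Treg (-2.26, adjusted p = 1.41e-04). The pseudokinase Trib3, which binds CHOP and ATF4, rose from 2.4 ± 0.466 to 32.4 ± 9 CPM, Atf5 from 5.76 ± 0.365 to 35.8 ± 15.2 CPM, and the mTOR inhibitor Ddit4 from 59.6 ± 10.5 to 331 ± 47.8 CPM. Across the whole list, 3 members were higher and 5 lower in Th17 than in Th0, and 6 higher and 9 lower in Treg. Over all genes, 16.1% were higher and 12.6% lower in Th17, and 25.7% and 20.6% in Treg.

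Aminoacyl-tRNA synthetases, which load amino acids onto tRNA, were higher in 16 of 22 cases and lower in 2 (median 0.93), the latter count being 1 without naive replicate 1 or Th0 replicate 3. Cars, the cysteine enzyme, lay at 32.1 and 31.1 CPM in naive and 207 and 175 CPM in Th0 (chr7:143557230-143600090). Sars, the serine enzyme, lay at 126 and 137 against 648 and 569.9 CPM, and Aars, the alanine enzyme, at 97.8 and 108 against 473 and 433 CPM. All 3 were far higher in each Th0 library than in either naive library, with log2 fold changes of 2.59, 2.21 and 2.14. Hars (62.8 ± 1.19 against 38.9 ± 3.68 CPM), the histidine enzyme, was lower, and those for arginine (Rars), leucine (Lars) and tryptophan (Wars) did not pass the test.

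Amino acid and metabolite carriers moved in both directions, with 10 of 35 higher and 16 lower. Those higher included Slc7a5 (log2 fold change 2.11) and Slc3a2 (1.04), the chains of the large neutral amino acid exchanger that T cells need for growth. Slc6a9, a glycine carrier, rose from 1.42 ± 0.0411 to 19.8 ± 6.95 CPM, and Slc1a4, for alanine, serine and cysteine, from 1.72 ± 0.16 to 16.4 ± 1.59 CPM. Slc5a3, the inositol carrier (chr16:92058322-92087473), lay at 24.6 and 18.6 CPM in naive and 285 and 299.7 CPM in Th0. The groups were far apart, with a log2 fold change of 3.76 ± 0.18 SE, adjusted p = 2.01e-07. The aromatic amino acid carrier Slc16a10 fell from 52.8 ± 2.42 to 12.2 ± 0.992 CPM. Slc38a2 (353 ± 29.7 against 371 ± 1.98 CPM) and the glucose carrier Slc2a3 (94.5 ± 3.15 against 112 ± 18.6 CPM) did not pass the test.

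The mitochondrial genome and the nuclear genes for the same respiratory chain moved apart. Of the 13 genes encoded in mitochondrial DNA, 9 were lower in Th0 and 1 was higher (median -2.33). Of 51 nuclear genes for respiratory chain subunits and assembly factors, 27 were higher and 1 was lower (median 0.41). mt-Nd4, a complex I subunit, lay at 3043 and 3046 CPM in naive and 514 and 382 CPM in Th0, and mt-Atp6, of the ATP synthase, at 3977 and 4116 against 622 and 458 CPM. In both genes each Th0 library was far below each naive library, with log2 fold changes of -2.77 ± 0.19 SE, adjusted p = 1.57e-06 and -2.91 ± 0.64 SE, adjusted p = 0.00291. mt-Co1, of complex IV, went the other way, at 14046 and 14346 CPM in naive and 27062 and 24626 CPM in Th0. It was the most abundant annotated gene per length in both states, at a mean of 32817 TPM in naive and 55669 TPM in Th0, a log2 fold change of 0.86 ± 0.11 SE, adjusted p = 7.31e-05.

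The sum over the mitochondrial genes, most of it from mt-Co1 in Th0, moved far less, from 40836 and 42246 CPM in naive to 39389 and 34264 CPM in Th0. Transcripts of this genome are cut from long common precursors, and mt-Atp6 overlaps mt-Atp8 as mt-Nd4 overlaps mt-Nd4l. Copies of part of it sit in the nuclear genome on chromosome 1, between 24611535 and 24616197, and are annotated as pseudogenes. The copies Gm28438 and Gm28439 were lower in Th0 (log2 fold changes -2.91 and -2.85, the first ranging from -4.21 without Th0 replicate 1 to -2.26 without Th0 replicate 3), Gm10925 was lower by less (-0.41), Gm28437 and Gm28661 did not pass the test, and Gm29216 was higher (0.76). Reads shared between these copies and the mitochondrial genes can be split either way, so levels of single mitochondrial genes are uncertain. Between the other cultured states, mt-Atp6 measured 495 and 3123 CPM in the Th17 libraries, which lie far apart, and 389 and 429 CPM in Treg. Of the 13 genes, 6 were higher and none lower in Th17 than in Th0 (16.1% and 12.6% of all genes). In Treg, 8 were higher and 2 lower (25.7% and 20.6% of all genes). Polrmt, the mitochondrial RNA polymerase, fell from 39.9 ± 4.08 to 19.9 ± 3.11 CPM, and Tfam, which packages and activates mitochondrial DNA, did not pass the test (61.4 ± 2.19 against 62.9 ± 0.159 CPM).

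**Figure D3:**
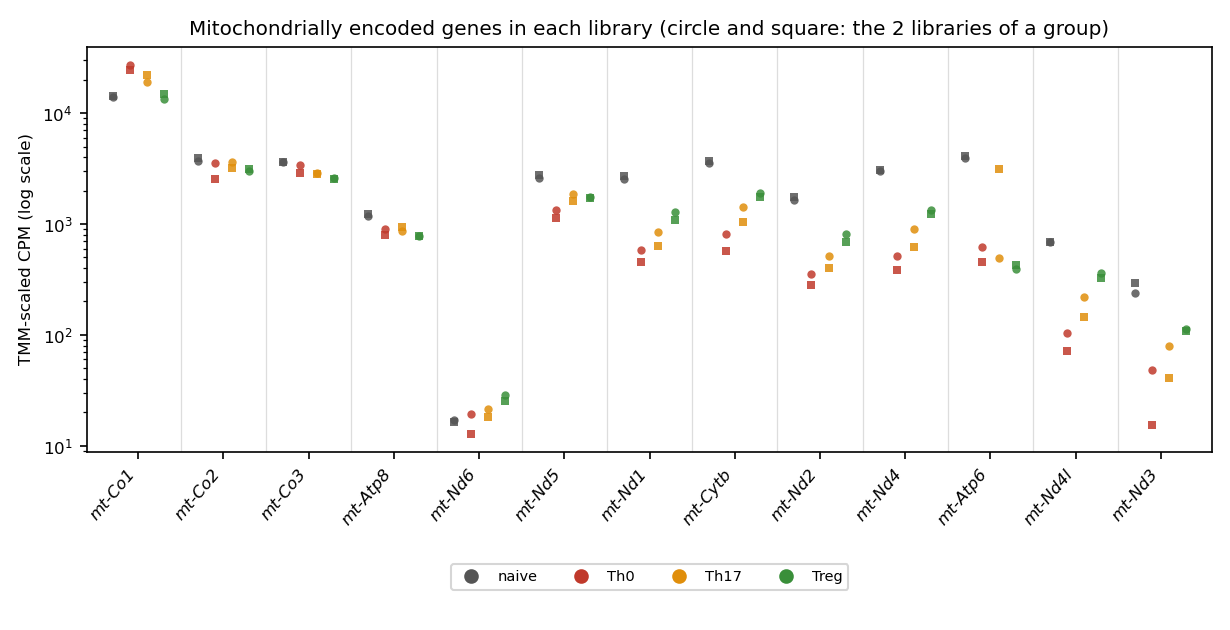
Level (CPM, log axis) of the 13 genes encoded in mitochondrial DNA in each of the 8 libraries, 1 point per library, coloured by group. mt-Co1 is higher in Th0 than in naive, while mt-Nd4 and mt-Atp6 are lower, and the Th17 libraries lie far apart for mt-Atp6.

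Among the nuclear respiratory chain genes, Cox8a rose from 67.6 ± 3.76 to 169 ± 19.1 CPM, the ATP synthase subunit Atp5d from 74.4 ± 5.65 to 165 ± 5.37 CPM, and the complex III core protein Uqcrc2 from 145 ± 2.74 to 303 ± 20.4 CPM. The assembly factor Ndufaf4 was the member called lower (18 ± 8.47 against 9.85 ± 0.114 CPM), a call lost without naive replicate 2, Th0 replicate 1 or Th0 replicate 3 (adjusted p = 0.456, 0.141 and 0.126). Without Th0 replicate 1, 2 other members were called lower. Enzymes of fatty acid oxidation were higher in 13 of 22 cases and lower in 3. Acadl, the long-chain acyl-CoA dehydrogenase, lay at 68.1 and 72 CPM in naive and 198 and 196 CPM in Th0, with no overlap (log2 fold change 1.49 ± 0.09 SE, adjusted p = 6.48e-07). Hadhb, the beta chain of the trifunctional protein, rose by 1.55 on the log2 scale. The acyl-CoA synthetase Acsl1 fell by 2.70 on the same scale, and it is also expressed in myeloid cells, whose markers fell with it. Of 39 genes of the citrate cycle and its carriers, 20 were higher and 10 lower. The aspartate aminotransferase Got1 (log2 fold change 1.92) and the citrate carrier Slc25a1 (1.67) rose, and the cytosolic isocitrate dehydrogenase Idh1 and the kinase Pdk1 fell (-1.77 and -1.29).

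Many targets of p53 were higher in Th0. p53 is a transcription factor that is stabilised by DNA damage and other stress, and its targets halt the cell cycle or start apoptosis. Of 26 tested targets, 16 were higher and 8 lower (median 1.26). Cdkn1a, which encodes the cell cycle inhibitor p21 (chr17:29090979-29100722), lay at 14.7 and 14.9 CPM in naive and 174 and 214 CPM in Th0. Each Th0 library was over 10 times each naive library, with a log2 fold change of 3.71 ± 0.12 SE, adjusted p = 3.11e-08. Zmat3, an RNA-binding protein, lay at 29.5 and 27.9 against 264 and 294 CPM (log2 fold change 3.28 ± 0.12 SE, adjusted p = 4.61e-08). Phlda3, an inhibitor of AKT signalling, rose from 1.44 ± 0.603 to 39.8 ± 11 CPM, and Gadd45g, a stress-inducible gene, from 10.4 ± 0.196 to 35.6 ± 4.88 CPM. Cyclin G1 (Ccng1, log2 fold change 1.80), Trp53inp1 (1.31) and Sesn3 (1.28) rose as well.

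Some death-linked targets were among those higher, while Aen, another member of the list, did not pass the test. The death-linked gene Pmaip1, counted below with the BCL2 family, was lower. Bbc3, which encodes the BH3-only protein PUMA, lay at 18.1 and 15.4 CPM in naive and 94.9 and 104 CPM in Th0, and the death receptor Fas lay at 21.1 and 22.5 against 120.2 and 121 CPM. Neither gene had overlapping groups, and the log2 fold changes were 2.57 and 2.47. The death receptor gene Tnfrsf10b rose from 5.43 ± 0.0468 to 49.4 ± 0.0782 CPM. Trp53 itself was lower (136 ± 0.664 against 81.4 ± 0.92 CPM), as were Btg2 (467 ± 23.4 against 72.6 ± 12.7 CPM), the kinase Plk3 and Gadd45b. Trp53inp2 and Tigar, further members of the list, were lower too. Btg2, Plk3 and Gadd45b are also induced by signals other than p53, and the part of such signals was not tested. In Treg against Th0, 16 of the 26 were lower and 4 higher, and in Th17 5 were lower and 4 higher. Over all genes, 20.6% were lower and 25.7% higher in Treg, and 12.6% and 16.1% in Th17. Cdkn1a measured 292 ± 5.94 CPM in Th17 and 98.3 ± 4.61 CPM in Treg (SD, n = 2).

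Cell cycle brakes and drivers rose side by side. Of 24 CDK inhibitors, G1 cyclins, pocket proteins and E2F factors, 15 were higher and 3 lower (median 0.76). Rb1, the retinoblastoma protein, which holds E2F factors back, lay at 131 and 136 CPM in naive and 417 and 458 CPM in Th0, and E2f2 lay at 79.9 and 66.7 against 262 and 273 CPM. Both were without overlap (log2 fold changes 1.71 ± 0.10 SE, adjusted p = 5.22e-07 and 1.87 ± 0.11 SE, adjusted p = 5.23e-07). Cdkn2d, an inhibitor of CDK4 and CDK6, rose by 1.51 on the log2 scale, and cyclin E1 (Ccne1) by 1.76. None of the D cyclins was called higher. Ccnd2 measured 429 ± 16.8 against 415 ± 46 CPM and did not pass the test, nor did Ccnd3 (107 ± 48.5 against 53 ± 1.44 CPM), which was called lower without naive replicate 1 (-1.42, adjusted p = 0.0297). Ccnd1, which T cells hardly express, lay at 184 and 157 CPM in naive and 0.198 and 0.154 CPM in Th0, a fall that went with that of the myeloid and stromal markers. Their part in it was not tested.

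Survival genes of the BCL2 family changed on both sides, with 14 of 30 higher and 12 lower. The pro-death Bcl2l11 (BIM) rose from 59.9 ± 4.85 to 140.3 ± 17.5 CPM and Bax by 0.98 on the log2 scale. The pro-survival Bcl2 rose from 186 ± 7.59 to 335 ± 45.7 CPM and Bcl2l1 (BCL-XL) from 12.1 ± 2.39 to 36.7 ± 7.33 CPM, and Birc5, survivin, which also acts in mitosis, from 16.2 ± 2.02 to 116 ± 12.4 CPM. Mcl1 was lower (842 ± 43.1 against 635 ± 6.64 CPM), as were the BH3-only genes Pmaip1 (187 ± 19 against 51.2 ± 2.33 CPM) and Bmf. Bcl2a1a, Bcl2a1b and Bcl2a1d are near-identical copies, so their falls are uncertain one by one.

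Cytosolic chaperones, which fold newly made proteins, were higher in 20 of 32 cases and lower in 3 (median 0.55), the latter count being 1 without naive replicate 2 or Th0 replicate 3. Hsp90aa1 lay at 329 and 278 CPM in naive and 796 and 856 CPM in Th0, and Hsp90ab1 at 1499.5 and 1356 against 3419 and 3816 CPM. Neither pair of groups overlapped (log2 fold changes 1.45 and 1.34). Subunits of the chaperonin that folds actin and tubulin rose, with Cct7 at 1.43, Cct4 at 1.27 and Tcp1 at 1.26 on the log2 scale, and Hspa4l, a nucleotide exchange factor, at 2.01. Hspe1, the mitochondrial chaperonin lid, rose from 69.5 ± 0.751 to 383 ± 75.2 CPM. The heat-inducible Hspa1a lay at 11.1 and 3.9 CPM in naive and 165 and 177 CPM in Th0. Its log2 fold change of 4.52 became 5.45 without naive replicate 1. It is nearly identical to Hspa1b, so the split of reads between them is uncertain, and both were at low levels in Treg (3.41 and 5.83 CPM for Hspa1a, 6.22 and 6.44 CPM for Hspa1b).

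Genes of the endoplasmic reticulum moved in both directions, at shares near those over all genes (31.3% higher, 36.4% lower). Of 33 genes of the unfolded protein response and secretory pathway, 10 were higher and 12 lower (median -0.02), and the higher count was 5 without naive replicate 2 or Th0 replicate 3. Dnajb9, a cochaperone of BiP, lay at 118 and 109.8 CPM in naive and 12.1 and 13.9 CPM in Th0. Both Th0 libraries were far below both naive libraries, a log2 fold change of -3.13 ± 0.19 SE, adjusted p = 6.84e-07. Hspa5, BiP itself, fell from 529 ± 198 to 303 ± 67.6 CPM, a call lost without naive replicate 1 or Th0 replicate 3 (log2 fold changes -0.36 and -0.58, adjusted p = 0.292 and 0.187), and Sdf2l1 and Syvn1 were also lower. Ero1l, an oxidase of the reticulum, rose by 1.01 and Xbp1 by 0.44 on the log2 scale. B cell and plasma cell markers, whose cells are rich in these transcripts, were lower in Th0 too (3 of 4 plasma cell markers), and their part in the falls was not tested.

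**Figure D4:**
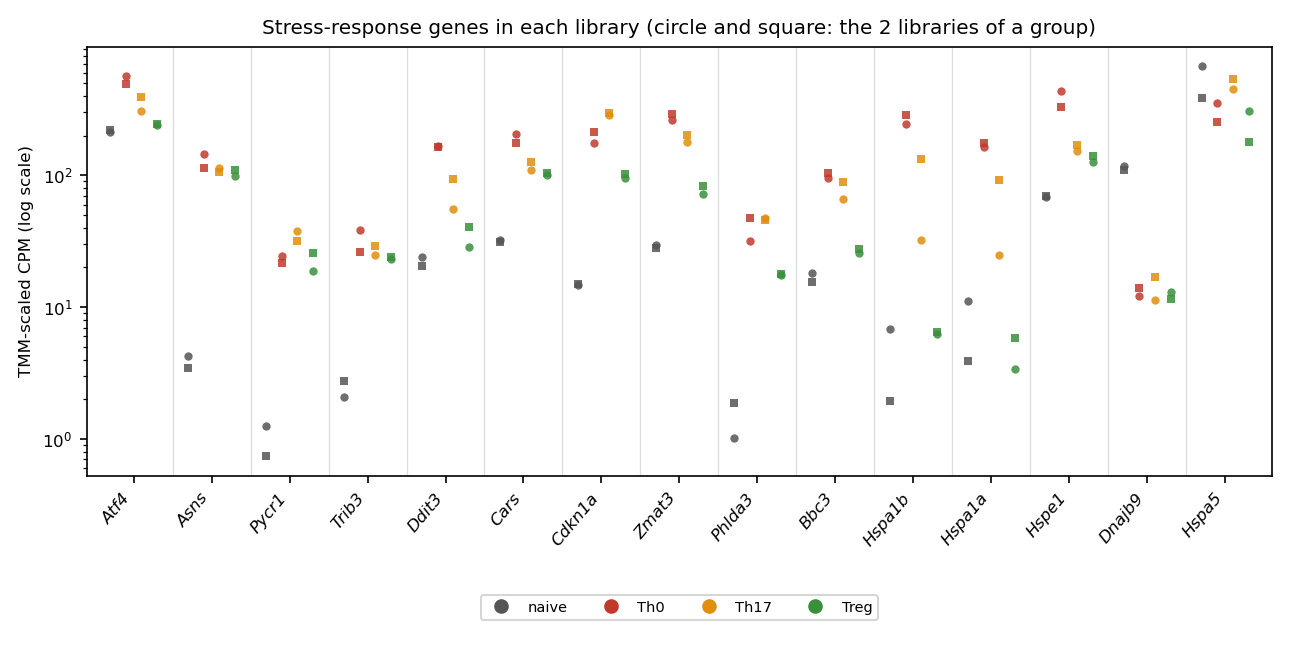
Level (CPM, log axis) in each of the 8 libraries of 15 genes of the ATF4, p53 and chaperone groups, 1 point per library, coloured by group. Asns, Pycr1 and Cdkn1a are higher in all Th0 than in all naive libraries, while Dnajb9 is lower.

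Immediate early transcription factors were far lower in Th0 than in cells taken from the spleen. Of 23 such genes, 18 were lower and 4 higher (median -1.98). Junb lay at 1481 and 1535 CPM in naive and 205 and 174 CPM in Th0, and Fosb at 513 and 415 against 1.52 and 1.08 CPM. In both, every naive library was far above every Th0 library (log2 fold changes -2.99 ± 0.12 SE, adjusted p = 7.05e-08 and -8.46 ± 0.35 SE, adjusted p = 8.41e-08). Myeloid cells also express these genes, and the part of the myeloid markers' fall in them was not tested. Egr1 fell from 303 ± 55.9 to 76.8 ± 20 CPM and Nr4a1 from 619 ± 45.4 to 284 ± 12 CPM, while Egr2 did not pass the test (32.4 and 14.5 against 21.9 and 13.6 CPM), though it did without naive replicate 2 (-0.87, adjusted p = 0.0285).

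The 4 members that were higher were Nr4a3, Fosl2, Fosl1 and Nfatc3. Nr4a3, an orphan nuclear receptor induced by antigen receptor signals (chr4:48045153-48086447), lay at 36.2 and 13.4 CPM in naive and 308 and 268 CPM in Th0. Its naive libraries differ from each other, yet both lie well below Th0, a log2 fold change of 3.55 ± 0.36 SE, adjusted p = 2.15e-05. It became 4.43 without naive replicate 1. Its level was 32.7 ± 1.42 CPM in Th17, where it was lower than in Th0 (-3.14, adjusted p = 3.00e-04), and 219 ± 14.2 CPM in Treg (-0.40, adjusted p = 0.338). Fosl2, an AP-1 subunit, lay at 81.2 and 76.1 CPM in naive and 291 and 235 CPM in Th0 (log2 fold change 1.74 ± 0.13 SE, adjusted p = 3.65e-06).

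Factors tied to effector and resting states split. Hif1a, which drives glycolytic genes in low oxygen and on T cell activation (chr12:73901375-73947530), lay at 222 and 203 CPM in naive and 1510.5 and 1548 CPM in Th0. Both Th0 libraries were many times the naive level, and the log2 fold change was 2.84 ± 0.09 SE, adjusted p = 3.09e-08. The signal transducers of cytokine receptors were higher, with Stat5a rising from 92.9 ± 3.33 to 375 ± 8.22 CPM, Stat4 by 1.44, Stat5b by 1.30 and Stat3 by 1.18 on the log2 scale. Lineage factors of Th1 and Th2 cells both rose, Tbx21 of Th1 cells by 1.21 and Gata3 of Th2 cells by 1.19, and Nfil3 by 1.68. Maf (161 ± 7.17 against 42.4 ± 10.3 CPM), Id2, Eomes and Zeb2 were lower, which are also expressed in memory, NK or myeloid cells. In all, 15 of 33 effector factors were higher and 11 lower.

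Of 33 factors linked to quiescence, 16 were lower and 7 higher. Klf4 fell from 76.7 ± 10 to 1.41 ± 0.148 CPM, Klf6 from 584 ± 56.4 to 136 ± 6.99 CPM and the antiproliferative Tob2 from 188 ± 18.1 to 40.8 ± 1.2 CPM. Satb1, a chromatin organiser of T cells, rose from 504 ± 17.8 to 923 ± 82.3 CPM. Lef1 (256 ± 25.5 against 247 ± 25.5 CPM), Runx1 and Elf4 did not pass the test.

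The antigen receptor machinery changed by modest amounts. Of 18 genes of the receptor complex and its coreceptors, 8 were higher and 3 lower. Cd3e lay at 170.4 and 170.0 CPM in naive and 375 and 358 CPM in Th0, and Cd28 at 309 and 339.5 against 655 and 705 CPM. Both were higher in each Th0 library than in either naive library (log2 fold changes 1.11 and 1.07). Cd3d (1.24), Cd247 (1.00) and Cd4 (0.47) rose, and the receptor constant chains Trac (402 ± 33.9 against 459.9 ± 5.41 CPM), Trbc1 and Trbc2 did not pass the test. In Th17, 10 of the 18 were lower than in Th0 and 1 was higher, and in Treg 7 were lower and 4 higher. The shares over all genes were 12.6% lower and 16.1% higher in Th17, and 20.6% and 25.7% in Treg.

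The genes higher in Th0 included both kinases and adaptors that pass the receptor signal on and proteins that damp it. Zap70, the kinase bound to the activated receptor (chr1:36761798-36782818), lay at 173 and 176 CPM in naive and 488 and 434 CPM in Th0. Cblb, a ubiquitin ligase that raises the threshold for activation (chr16:52031549-52208047), lay at 143 and 157 against 901 and 844 CPM. Neither gene had overlapping groups, and Cblb had the greater change, 2.54 ± 0.10 SE, adjusted p = 7.05e-08 against 1.40 ± 0.09 SE, adjusted p = 8.91e-07 for Zap70. Sh2d2a, the adaptor TSAd, rose from 197 ± 2.85 to 694 ± 52.6 CPM, and the phosphatase Ptpn22 from 185 ± 3.84 to 594 ± 26.7 CPM. The scaffold protease Malt1 (1.29), the phospholipase Plcg1 (1.17) and the adaptor Fyb (1.12) were higher on the log2 scale. The diacylglycerol kinase Dgka (964 ± 66.2 against 563 ± 18.5 CPM), the phosphatase Ptpn6 and the kinase Fyn were lower. In all, 13 of 34 proximal genes were higher and 9 lower in Th0 (38.2% and 26.5%, with 31.3% and 36.4% over all genes). In Th17, 20 of the 34 were lower and 2 higher than in Th0 (12.6% and 16.1% of all genes). In Treg, 18 were lower and 5 higher (20.6% and 25.7% of all genes).

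Feedback regulators further downstream fell in 18 of 35 cases and rose in 12. Cish, which is induced by STAT5 and restrains cytokine and receptor signals, lay at 33.1 and 34.9 CPM in naive and 173 and 138 CPM in Th0. Bcl3, a nuclear member of the I-kappa-B family, lay at 42.6 and 42.9 against 167 and 159 CPM, and Pik3ip1, an inhibitor of PI3 kinase, at 50.4 and 41.3 against 171 and 208 CPM. All 3 had every Th0 library above every naive library, with log2 fold changes between 1.93 and 2.19. Dusp4 was the MAP kinase phosphatase that rose most (1.37), while Dusp6 (99.3 ± 16.3 against 15.1 ± 1.63 CPM) and Dusp2 (231 ± 17.5 against 39 ± 6.42 CPM) fell. The regulators of G-protein signalling Rgs1 and Rgs2 fell too (log2 fold changes -1.82 and -4.43).

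Co-stimulatory receptors of the TNF receptor family and their ligands were both among the higher genes. Of 27 such genes, 12 were higher and 11 lower. Tnfrsf18 (GITR) lay at 39.2 and 40.4 CPM in naive and 279 and 299 CPM in Th0, and Tnfsf8, the ligand of CD30, at 52 and 59.7 against 229 and 241 CPM. No library of either group crossed over (log2 fold changes 2.86 ± 0.10 SE, adjusted p = 4.22e-08 and 2.07 ± 0.12 SE, adjusted p = 5.65e-07). Tnfsf4, the ligand of OX40, rose from 0.506 ± 0.102 to 8.35 ± 2.01 CPM, and Icos by 1.16 on the log2 scale. Tnfsf11 (RANKL) fell from 17.8 ± 1.2 to 1.46 ± 0.00733 CPM. Of 22 inhibitory receptors and ligands, 14 were lower and 4 higher, the last being Lag3, Tigit (17.9 ± 1.46 against 60.5 ± 1.33 CPM), Cd200 and Ctla4 (229 ± 3.97 against 423 ± 3.41 CPM). Havcr2, Lair1 and Cd244, which myeloid or NK cells also express, fell with the markers of those cells.

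Among cytokine receptor genes, the IL-12 receptor chains and the kinase of the common gamma chain were higher. Il12rb2, the signalling chain of the IL-12 receptor (chr6:67291318-67376188), lay at 18.1 and 18.1 CPM in naive and 290.3 and 297 CPM in Th0. Jak3, the kinase of the common gamma chain (chr8:71676296-71690575), lay at 203 and 189.9 against 963 and 988 CPM. Both Th0 libraries were many times the naive libraries for each, with log2 fold changes of 4.02 ± 0.12 SE, adjusted p = 2.20e-08 and 2.31 ± 0.12 SE, adjusted p = 2.86e-07. Il12rb2 measured 242 ± 29.7 CPM in Th17 and 202 ± 16.8 CPM in Treg (SD, n = 2), against Th0 log2 fold changes of -0.28, adjusted p = 0.0732 and -0.54, adjusted p = 0.00263. The IL-12 receptor's other chain Il12rb1 (1.30) and Il21r (0.70) also rose. Il6ra, the IL-6 receptor, lay at 315 and 324 CPM in naive and 63.8 and 68.8 CPM in Th0. It was lower in both Th0 libraries (log2 fold change -2.27 ± 0.10 SE, adjusted p = 1.06e-07). In all, 11 of 37 receptor and kinase genes were higher and 17 lower, and the falls include Csf2rb and Lifr, whose falls went with those of myeloid markers.

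Of 29 cytokine genes, 8 were higher and 10 lower. Vegfa, the vascular growth factor, lay at 3.66 and 3.12 CPM in naive and 34.6 and 27.1 CPM in Th0, and Lif, of the IL-6 family, at 8.62 and 8.28 against 39.7 and 31.6 CPM. Mif rose from 45.9 ± 0.353 to 160.0 ± 4.44 CPM, and each of these had both Th0 libraries above both naive libraries (log2 fold changes 3.19, 2.08 and 1.80). Il24 had no count in either naive library and lay at 4.36 and 4.31 CPM in Th0, at least 31.6-fold higher than the floor of 3 counts per library. Il2 (1.25 and 0.867 against 3.04 and 3.08 CPM) did not pass the test, though it did in the 4 libraries alone, with limma-voom or with no filter on low counts (adjusted p = 0.00916, 0.0277 and 0.0082). The falls of Il1b, Il18 and Il1a, products of myeloid cells, went with those of the myeloid markers.

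**Figure D5:**
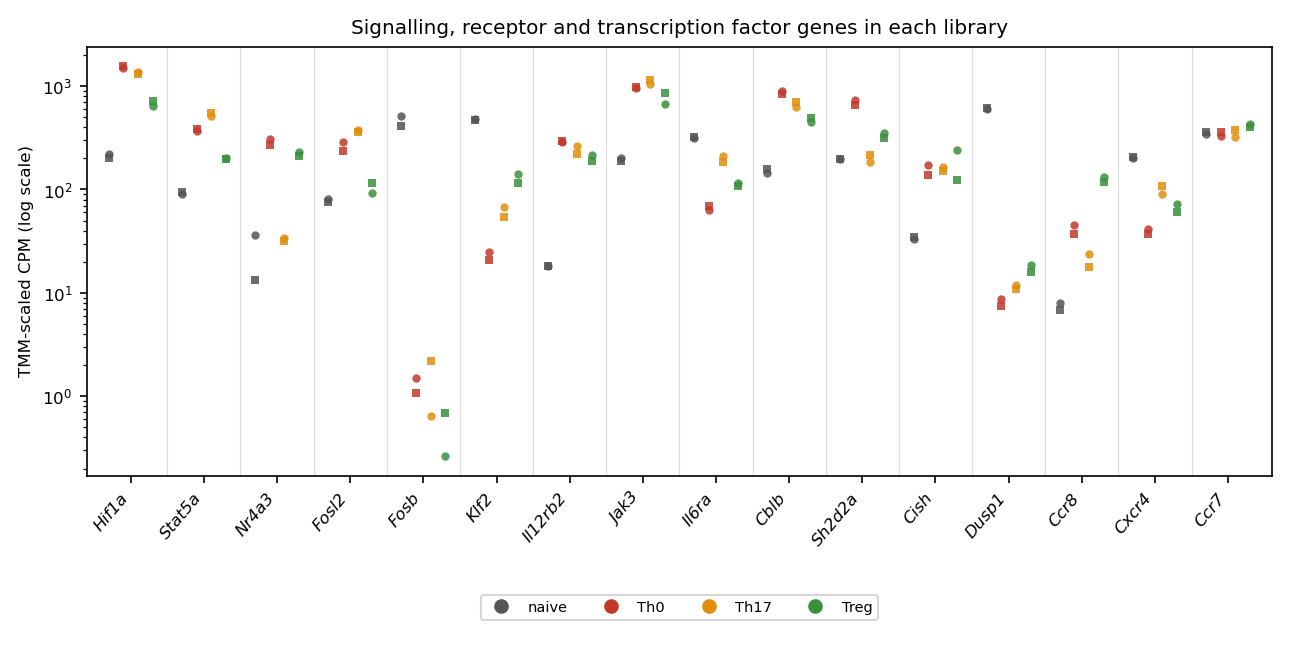
Level (CPM, log axis) in each of the 8 libraries of 16 genes of transcription control, receptor signalling and homing, 1 point per library, coloured by group. Hif1a, Il12rb2, Jak3, Cblb and Ccr8 are higher in both Th0 than in both naive libraries, Fosb, Dusp1 and Cxcr4 are lower, and Ccr7 lies at a similar level.

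Genes that guide T cells through tissues were lower in 24 of 34 cases and higher in 5 (median -1.36), the latter count being 3 without naive replicate 1, naive replicate 2 or Th0 replicate 1. Cxcr4, the receptor for CXCL12 (chr1:128588199-128592293), lay at 202 and 204 CPM in naive and 41.5 and 37.1 CPM in Th0. S1pr1, with which T cells leave lymphoid organs, lay at 500.3 and 549.6 against 154 and 177 CPM. Both were lower in every Th0 library (log2 fold changes -2.37 ± 0.13 SE, adjusted p = 4.61e-07 and -1.67 ± 0.13 SE, adjusted p = 3.29e-06). Ccr7, the receptor that brings T cells into lymph nodes, measured 351 ± 8.4 against 345 ± 24.9 CPM and did not pass the test (log2 fold change -0.02 ± 0.10 SE, adjusted p = 0.848). Ccr8 was the homing receptor that rose most, from 7.9 and 6.76 to 45.6 and 36.9 CPM in the 2 libraries of each state (log2 fold change 2.49 ± 0.18 SE, adjusted p = 2.26e-06), and it measured 20.8 ± 4.2 CPM in Th17 and 126 ± 10.5 CPM in Treg. Adora2a, an adenosine receptor, rose by 0.94 on the log2 scale. Of 12 chemokines, 11 were lower and 1, Ccl22, was higher (4.32 ± 0.226 against 31.3 ± 3.7 CPM). Ccr3, Cx3cr1 and most of the chemokines are made by myeloid or NK cells, whose markers were lower as well, and the part of those cells was not tested.

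Adhesion genes were lower in 22 of 30 cases and higher in 2, Sema7a (1.13) and Itgb3 (0.56). Itgb7, a chain of the gut-homing integrin, fell from 536 ± 8.42 to 323 ± 10 CPM. Itgb2, the shared chain of leukocyte integrins, measured 663 ± 21.8 against 684 ± 0.645 CPM and did not pass the test. The greatest fall, that of Vcam1 (1078 and 1029 CPM in naive, 0.396 and 0 CPM in Th0), is of a gene of stromal cells and splenic macrophages, and 7 of 9 stromal markers were lower beside it.

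Genes that build surface glycans were lower in 25 of 38 cases and higher in 5 (median -0.81). St8sia6, a sialyltransferase, lay at 129 and 123 CPM in naive and 12 and 11 CPM in Th0, with no overlap (log2 fold change -3.45 ± 0.14 SE, adjusted p = 7.05e-08). St3gal4 (50 ± 0.114 against 111 ± 2.95 CPM), St6galnac6, B4galt1, Man1a and Ggta1 were higher. The sphingolipid list had 20 of 32 lower and 5 higher (3 without naive replicate 1 or Th0 replicate 3), with the lactosylceramide synthase B4galt6 going from 22.4 ± 0.123 to 0.385 ± 0.544 CPM. The lysosome list had 26 of 39 lower and 4 higher (median -0.97). Those higher were the cholesterol exporters Npc1 (102 ± 0.749 against 238 ± 14.6 CPM) and Npc2 (373 ± 7.57 against 818 ± 27.6 CPM), the sialidase Neu1 and Scarb2. The cathepsin genes Ctsb (1635 ± 115 against 268 ± 0.316 CPM) and Ctsh and granulin (Grn) are abundant in macrophages, and they fell with the myeloid markers, a part that was not tested.

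Phospholipid genes, the theme of the study's title, moved in both directions, with 14 of 48 higher and 14 lower. Each share was 29.2%, against 31.3% higher and 36.4% lower over all genes. The median of 0.01 changed sign with the scaling used. Lpin1, a phosphatidate phosphatase, lay at 51.5 and 55.2 CPM in naive and 190.3 and 239 CPM in Th0 (chr12:16535669-16589770). Agpat4, which acylates lysophosphatidic acid, lay at 6.07 and 4.12 against 32.5 and 22.8 CPM, and Pla2g12a, a phospholipase A2, at 9.73 and 9.67 against 42.5 and 41.6 CPM. All 3 were higher in every Th0 library (log2 fold changes 2.01 ± 0.15 SE, adjusted p = 3.07e-06, 2.44 ± 0.36 SE, adjusted p = 2.57e-04 and 2.11 ± 0.14 SE, adjusted p = 1.24e-06). Cds2, Pgs1 and Ptdss2, of phosphatidylinositol, phosphatidylglycerol and phosphatidylserine synthesis, rose by 0.79, 1.05 and 0.72 on the log2 scale, and Pcyt2, of phosphatidylethanolamine synthesis, by 0.71. The greatest falls were those of Pla2g7, Pla2g4a and Lpcat2 (42.4 ± 0.774 against 0.605 ± 0.0154 CPM), which fell with the myeloid markers. In Th17 against Th0, 12 of the 48 were higher and 2 lower (16.1% and 12.6% of all genes). In Treg, 14 were higher and 14 lower (25.7% and 20.6% of all genes).

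Nucleotide synthesis genes were higher in 20 of 35 cases and lower in 7 (median 0.52). Paics, of purine synthesis, lay at 81 and 81.1 CPM in naive and 279.9 and 291 CPM in Th0, and Impdh2, of guanine nucleotide synthesis, at 26.9 and 26.6 against 64.2 and 70.4 CPM. Neither had overlapping groups (log2 fold changes 1.82 ± 0.08 SE, adjusted p = 1.57e-07 and 1.33 ± 0.13 SE, adjusted p = 2.07e-05). The pyrimidine enzymes Ctps and Umps rose (1.17 and 0.72), while Dhodh, the mitochondrial step of that pathway, fell from 13.2 ± 0.308 to 3.99 ± 0.131 CPM, and the purine enzymes Gart and Ampd3 fell, Ampd3 with a log2 fold change of -3.80. Redox genes were higher in 16 of 38 cases and lower in 13. Glutathione synthetase Gss rose from 13.5 ± 0.397 to 56.1 ± 1.05 CPM and Gpx4, which reduces lipid peroxides, from 32.2 ± 1.21 to 93.3 ± 9.49 CPM, while Gpx1 fell from 280.4 ± 15.6 to 54.4 ± 3.64 CPM. Hmox1, the haem oxygenase of red pulp macrophages, fell from 657 ± 20.4 to 12.3 ± 2.44 CPM beside the myeloid markers and those of red blood cells and platelets.

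Transport through the nuclear pore was higher, with 19 of 30 genes up and 2 down (median 0.52). Kpna2, an importin alpha, rose from 11 ± 1.95 to 37.1 ± 9.15 CPM, Nup205, of the pore's inner ring, from 109 ± 6.39 to 272 ± 23.3 CPM, and Xpot, the exporter of tRNA, by 1.26 on the log2 scale. Ipo4 and Ranbp1 fell (-1.41 and -1.11). Of 52 chromatin genes, 20 were higher and 17 lower. Hells, a remodeller of heterochromatin, lay at 27.3 and 27.3 CPM in naive and 236 and 242 CPM in Th0, and Uhrf1, which guides maintenance DNA methylation, at 53.6 and 47.6 against 199 and 267 CPM. The groups were far apart in both (log2 fold changes 3.13 ± 0.10 SE, adjusted p = 3.09e-08 and 2.20 ± 0.15 SE, adjusted p = 1.78e-06), and the maintenance methyltransferase Dnmt1 rose by 1.22. Hdac7, a class IIa deacetylase of T cells, rose from 179.8 ± 13.8 to 681 ± 4.6 CPM.

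The cytoskeleton showed opposite changes within families. Tubb5, a beta tubulin, lay at 519.7 and 505 CPM in naive and 2514 and 2638 CPM in Th0, and Actg1, gamma actin, at 481 and 456 against 1362 and 1448 CPM. Both rose without overlap (log2 fold changes 2.33 ± 0.08 SE, adjusted p = 4.22e-08 and 1.58 ± 0.12 SE, adjusted p = 3.47e-06). Flna, filamin A, which crosslinks actin, fell from 1414 ± 33.9 to 338 ± 34.5 CPM, and Ahnak from 579 ± 50.3 to 120.4 ± 1.41 CPM. S100a6, a gene of memory and myeloid cells, was lower (log2 fold change -2.65). In all, 17 of 56 genes were higher and 22 lower. In Treg against Th0, 40 were higher and 3 lower, where 25.7% of all genes were higher and 20.6% lower. Among calcium and ion transport genes, 11 of 39 were higher and 16 lower. The calcium pump Atp2b4 (50.4 ± 0.469 against 272 ± 10.4 CPM) and the calcineurin subunit Ppp3cc (54.2 ± 2.73 against 213 ± 5.49 CPM) rose most. Cytotoxic granule genes were higher in 9 of 16 cases and lower in 5, with Gzma at 22.7 and 25.1 CPM in naive and 92.7 and 83.2 CPM in Th0, Ctsw up by 1.67 and the granzyme inhibitor relative Serpinb6b up by 3.50 on the log2 scale. CD8 T cell markers were higher beside them (91.6 and 82.0 CPM in naive, 176 and 176 CPM in Th0) while all 9 NK cell markers were lower, and the part of those cells was not tested.

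Other parts of the cell's housekeeping changed member by member. Of 44 genes of the mitochondrial ribosome and translation, 17 were higher and 8 lower, and without Th0 replicate 3 the latter count was 5. Mrpl9 rose from 60.6 ± 0.0376 to 198 ± 9.38 CPM and Mrps2 fell from 26.7 ± 0.536 to 12.3 ± 0.634 CPM. Of 33 genes of mitochondrial import, 14 were higher and 5 lower, with the import channel Tomm40 falling from 42 ± 1.58 to 17.1 ± 0.897 CPM. Of 38 proteasome genes, 13 were higher and 7 lower, with Psmc6 of the base rising by 1.23 on the log2 scale and the immunoproteasome subunit Psmb10 falling from 98.9 ± 1.59 to 36.9 ± 6.96 CPM. Autophagy genes were higher in 14 of 34 cases and lower in 9. Ulk1, the kinase that starts autophagy, lay at 53.6 and 58.8 CPM in naive and 206 and 232 CPM in Th0, and its relative Ulk2 at 102 and 99.9 against 43.4 and 44.8 CPM. They moved in opposite directions without overlap (log2 fold changes 1.96 ± 0.16 SE, adjusted p = 5.48e-06 and -1.19 ± 0.10 SE, adjusted p = 5.60e-06). Splicing factors split evenly, with 15 of 42 higher and 15 lower. Srsf1 rose from 132 ± 2.73 to 343 ± 53.2 CPM and Srsf6 fell from 487 ± 2.94 to 166 ± 12 CPM. Of 8 GIMAP GTPases of lymphocyte survival, 4 were higher and 2 lower (1 without naive replicate 2, Th0 replicate 1 or Th0 replicate 3), and Gimap7 rose most, from 57.2 ± 5.64 to 336 ± 20.6 CPM. Of 12 genes of the MYC and MAX network, 4 were higher and 2 lower (1 without naive replicate 1, 0 without naive replicate 2 or Th0 replicate 3), and the MAX partners Mxi1 and Mxd3 rose by 1.86 and 1.71. Polyamine genes were higher in 3 of 15 cases and lower in 5, with Odc1, ornithine decarboxylase, going from 188 ± 2.22 to 275 ± 9.86 CPM. Circadian clock genes were higher in 5 of 18 cases and lower in 6, with Per2 falling from 11.8 ± 0.458 to 2.3 ± 0.203 CPM and Cry1 rising by 0.96. Interferon response genes were lower in 32 of 41 cases and higher in 2 (1 with upper-quartile scaling or library totals), with a median of -1.73. The greatest changes were the falls of Ifi44, Rtp4, Oasl2, Ifi205, Ifi204 and Oas2. All 24 myeloid markers were lower as well, and the part of those cells in these falls was not tested. Genes of antigen presentation by MHC class I were lower in 8 of 17 cases and higher in 2, Tap1 and H2-Q7, the latter one of several near-identical genes. Metal-handling genes were higher in 12 of 29 cases and lower in 12. The metallothionein Mt2 lay at 1.69 and 1.73 CPM in naive and 32.3 and 20.2 CPM in Th0, and the iron exporter Slc40a1 of red pulp macrophages fell from 611 ± 104 to 0.264 ± 0.373 CPM with the myeloid markers.

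Several of the genes with the greatest rises are not usually linked to T cells. Lama5, a laminin chain of basement membranes (chr2:180176373-180225859), lay at 1.78 and 1.39 CPM in naive and 137 and 166 CPM in Th0. Serpine2, a protease inhibitor, lay at 0.915 and 0.78 against 44.5 and 58 CPM, and Unc13a, a protein of synaptic vesicle priming, at 1.69 and 2.51 against 124 and 129 CPM. All 3 were at low levels in both naive libraries, and their log2 fold changes were 6.58 ± 0.21 SE, adjusted p = 3.09e-08, 5.91 ± 0.21 SE, adjusted p = 4.22e-08 and 5.89 ± 0.22 SE, adjusted p = 5.27e-08. Sv2c, a synaptic vesicle protein, measured 26.2 ± 0.326 CPM in Th0 against 0.641 ± 0.0478 in naive, and Cox6b2, the testis form of a complex IV subunit, 53.7 ± 11.8 against 1.08 ± 0.371. Psrc1, a microtubule-associated protein of mitosis, rose from 4.06 ± 0.568 to 367 ± 5.63 CPM.

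These genes differed in whether the other cultured states shared them. Serpinb5 lay at 42.6 and 43.9 CPM in Th0, 16.7 and 21 CPM in Th17 and 0.262 and 0 CPM in Treg, where it was lower than in Th0 (log2 fold change -8.19, adjusted p = 1.57e-05). Serpine2 lay at 11.9 and 11.5 CPM in Th17 and 59.7 and 54 CPM in Treg, lower than in Th0 for Th17 (-2.13, adjusted p = 3.13e-05). Tnip3, an inhibitor of NF-kappa-B signalling, measured 32 ± 9.25 CPM in Th17 and 52.5 ± 4.87 CPM in Treg against 111 ± 10 CPM in Th0. Lama5 measured 192 ± 4.77 CPM in Th17 and 126 ± 26.2 CPM in Treg.

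At the other end, 520 of the 5342 lower genes had no count in either Th0 library, while 40 of the 4600 higher genes had none in either naive library. Among the greatest falls outside the marker lists were Kcnj10, a potassium channel (at least 496-fold lower), Ltf, lactoferrin of neutrophil granules (at least 424-fold), Igsf6 (at least 378-fold), Treml4 (at least 332-fold) and Hfe, a regulator of iron uptake (at least 323-fold). These bounds are set against 3 counts per library in Th0. Ltf and Treml4 are genes of neutrophils and of macrophages and dendritic cells, and the 5 genes fell beside a summed myeloid marker level that went from 5205 and 4964 CPM to 70.4 and 65.7 CPM. Their source was not tested. By level per length, and with marker genes, antigen receptor segments, predicted genes and pseudogenes left out, Cd74, the invariant chain of antigen-presenting cells, was among the 10 greatest losses of called genes, from 4118 to 218 TPM, and the others of those 10 were 8 mitochondrially encoded genes and the MHC class II gene H2-Eb1.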

How the data were processed

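RNA from 8 libraries of mouse spleen CD4+ T cells was extracted with TRIzol and sequenced on the Illumina HiSeq platform, per the labels' protocols. The tools RSEM and Bowtie2 and the builds mm10 and GRCm38.p6 appear in the submitters' processing notes, with no role for each, and the strand setting is not given in the sources used here. The authors deposited whole-number counts and FPKM values per gene for each library. Per the file headers these are counts and FPKM, and FPKM equalled the deposited count divided by total and length within 0.001 for 100.0% of 134607 values above 0. Counts from RSEM may be rounded estimates, which share reads between similar genes.

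Genes were tested with edgeR 4.0.16 (R 4.3.3) by quasi-likelihood on counts in 1 fit of 4 group means over all 8 libraries, with TMM scaling, filterByExpr and Benjamini-Hochberg adjustment over 14690 genes, called at an adjusted p under 0.05. The common biological coefficient of variation was 0.13 with 4 residual degrees of freedom. TPM was computed from the deposited FPKM and serves to compare genes. The floor of 3 counts per library (0.137 CPM in naive, 0.215 CPM in Th0) covers counting error only, while SDs and standard errors carry the spread between libraries. Promoters came from RefSeq (GRCm38.p6), and gene coordinates from the deposited table.

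The 2 libraries of a group correlated at r = 0.987 (naive) and 0.987 (Th0) across genes and differed beyond sampling noise. Deviations from the group means correlated at -0.029 to 0.125 between libraries of the same replicate number. With 2 libraries a group and no reference value, this cannot decide whether the numbers pair libraries, and they were not used as pairs in the main fit. The 61 gene lists, the members and the tests were chosen with earlier results of these data known. Named genes were the 15 greatest changes of each direction at 10 CPM or more, the 10 greatest differences in TPM, and of each list up to 6 called members by size, 3 of the rarer direction and 2 abundant members not called. Other genes named were chosen after their values were seen. 1 list and some genes are not reported here. No set test was run. The fit was tested on simulated data, and its alternatives included other scalings and filters, DESeq2 1.42.0, limma-voom 3.58.1, the replicate block and leaving out each library.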

Additional observations from a re-analysis of the deposited data

How the results depend on the processing

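The counts of called genes moved by over 1.5 times under 1 alternative, the test against a 2-fold change, with 1562 genes higher and 2669 lower. Leaving out 1 library at a time gave 3917 to 4187 higher and 4668 to 4812 lower. Scaling by library totals gave 3946 higher and 6008 lower and shifted the median log2 fold change to -0.23, and upper-quartile scaling shifted it to -0.14, from -0.08. DESeq2 called 4289 higher and 4890 lower, and without marker genes of other cell types the counts were 4573 and 5297. Medians near 0 change sign between these scalings, so no direction is given for lists such as the proteasome, autophagy, redox, chromatin and phospholipid lists. The lower count of mitochondrial import rose from 5 to 9 and that of the proteasome from 7 to 11 with library totals, and the higher count of the unfolded protein response list fell from 10 to 6 with library totals. The same scaling took the lower counts of ribosomal proteins and nuclear transport from 2 to 4, of chaperones and fatty acid oxidation from 3 to 5, and of the amino acid list from 1 to 2, and the higher count of the sphingolipid list from 5 to 3. The lower count of cytotoxic granule genes was 3 with a filter at 5 CPM in 2 libraries. With the replicate number as a block, 4304 genes were higher and 4896 lower. Whether the numbers pair the libraries is not known, and naive and Th0 share 1 number only. No fold change of a named gene changed sign among called values. Depth limits genes under 3 counts per library, and with 2 libraries a group the precision rests on a spread shared over all groups.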
